A study of Mus musculus with 38 samples.

Results

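Keratins are the intermediate filament proteins of epithelial cells, and they assemble as pairs of a type I and a type II chain. Basal cells of the epidermis, which sit on the basement membrane and divide, build their filaments from KRT5 (type II) and KRT14 (type I), with KRT15 as a further type I chain that is also known from the hair follicle bulge. Cells that leave the basal layer switch to KRT1 (type II) and KRT10 (type I), and KRT2 and KRT77 are further type II chains of suprabasal cells. Histone marks at these genes were followed in epidermal stem cells (EpdSCs) of mouse back skin after SOX9, a transcription factor of hair follicle stem cells, had been switched on. H3K27ac, acetylation of lysine 27 of histone H3, is found at active promoters and enhancers, and H3K4me1, mono-methylation of lysine 4, is found at enhancers and beside active promoters.

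The members were the 7 genes *Krt5*, *Krt14*, *Krt15*, *Krt1*, *Krt10*, *Krt2* and *Krt77*, out of 21938 protein-coding genes of the annotation. They were chosen by name, as the keratins of basal and suprabasal epidermis. Each was taken with its gene body and 10 kb on both sides, and an interval counted when it overlapped this window by at least 1 bp.

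All skin cells came from male mice of the genotype K14rtTA; TRE-myc-Sox9, whose MYC-tagged SOX9 is switched on by doxycycline (DOX), and the D0 cells carried both transgenes too. The activator rtTA is driven by a *Krt14* promoter, so that the cells in which SOX9 can be induced are cells that use the promoter of a member. For W1, W2 and W6 DOX was begun at postnatal day 21. It was kept up for the time named by the list (W1, W2, W6 and W12 for 1, 2, 6 and 12 weeks), with D0 as the uninduced state. Series of values written from D0 to W12, or from W1 to W12, follow these times in order. W12 cells came from neonatal skin grafted onto immunocompromised (*Nude*) female mice. Per the methods of the study, the grafts healed for 21 days before DOX was begun. The W12 libraries shared pools with replicate 1 of W2. A longer induction and the graft thus cannot be told apart at W12. Cells were sorted as negative for CD31, CD45, CD117 and CD140a, high for CD49f, negative for CD34 and high for Ly6A. Cultured EpdSCs carried a Krt14-rtTA activator and DOX-inducible SOX9, as the wild-type protein (WT) or without its DNA-binding domain (ΔHMG) or its transactivation domain (ΔTA). Their reference was WT without DOX.

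The 38 samples fell into 16 groups, and the intervals were in 14 lists, that is 5 of H3K27ac and 5 of H3K4me1 in skin and 4 of H3K4me1 in culture. Each list was called on merged replicates and nuclease digests. A list is thus 1 value per gene with no spread between replicates, and no difference between lists could be tested. Intervals given below cover counting error alone. H3K27ac lists held 29081 to 33985 peaks, H3K4me1 lists of skin 69439 to 87287 domains and culture lists 110589 to 123338 domains. The depth of the H3K27ac lists differed: the background pileup of reads was 1.85 at W2, against 0.299 at W1, 0.411 at W12, 0.501 at D0 and 0.677 at W6. The W12 list alone is named with a threshold, and the lowest peak score was 13 in all 5 H3K27ac lists.

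H3K27ac lay within 1 kb of the start of 5 of 7 basal marker genes at D0, W1, W2 and W6 and of 4 of 7 at W12, when *Krt15* was no longer among them. The basal markers include the members *Krt5*, *Krt14* and *Krt15*, and the suprabasal ones *Krt1*, *Krt10*, *Krt2* and *Krt77*. Of the 6 suprabasal markers *Krt77* had it at D0 and *Ivl* at W2, and none at W1, W6 or W12. None of the 4 leukocyte, 4 fibroblast and 3 endothelial markers had H3K27ac within 1 kb of its start in any list, and of the 4 melanocyte markers *Pmel* had it in all 5. In the wider windows all 4 fibroblast markers (*Pdgfra*, *Col1a1*, *Col1a2* and *Dcn*) had a peak at W12, against 0 of 4 at D0, 2 of 4 at W1 and 1 of 4 at W2 and at W6. Leukocyte markers with a peak in the window numbered 1 or 2 of 4 in each list, and endothelial ones 1 or 2 of 3. Of all protein-coding genes, 58.7%, 58.5%, 58.0%, 60.5% and 59.1% had a peak in the window from D0 to W12. The share of all genes with H3K27ac within 1 kb of the start was not counted. The part of such cells in the values at W12 was not tested.

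All members lie on the minus strand of mm10. The type I genes are on chromosome 11, *Krt10* at chr11:99385254-99389364, *Krt15* at chr11:100131758-100135928 and *Krt14* at chr11:100203162-100207548. The type II genes are on chromosome 15, *Krt5* at chr15:101707070-101712898, *Krt2* at chr15:101810689-101818169, *Krt1* at chr15:101845426-101850794 and *Krt77* at chr15:101858731-101869705. The windows of *Krt1* and *Krt77* share 12064 bp, and H3K27ac peaks in the shared stretch count for both. The start of *Krt9* lies in the window of *Krt14*, and that of *Krt73* in the window of *Krt2*.

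The sequence before the start site is shown for 5 members, because acetylation reached the start in some of them and never in others. The 250 bases end at the base before the transcript start, are written 5′ to 3′ on the gene's strand and come from RefSeq (GRCm38.p6), which had an entry for 5 of the 7 members. *Krt1* and *Krt15* were the others. The RefSeq entry of *Krt14* begins at a shorter transcript 1518 bp inside the gene, so that for *Krt14* the bases before the start of the long transcript were read from the genome of the same build. Capitals mark matches, on either strand, to TGANTCA (AP1), ACAAT (the core bound by SOX proteins), AGATAA (the site of the zinc finger factors named after it), TATANA (the box named after its first letters), GATAAA (a weaker form of that box, which can overlap AGATAA) and the p63 half-site.
Krt14 (chr11:100207549-100207798): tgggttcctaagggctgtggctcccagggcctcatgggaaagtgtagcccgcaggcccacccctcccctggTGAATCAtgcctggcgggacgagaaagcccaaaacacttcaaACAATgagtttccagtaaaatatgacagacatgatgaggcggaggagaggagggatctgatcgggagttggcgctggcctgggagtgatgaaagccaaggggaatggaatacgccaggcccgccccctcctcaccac
Krt5 (chr15:101712906-101713155): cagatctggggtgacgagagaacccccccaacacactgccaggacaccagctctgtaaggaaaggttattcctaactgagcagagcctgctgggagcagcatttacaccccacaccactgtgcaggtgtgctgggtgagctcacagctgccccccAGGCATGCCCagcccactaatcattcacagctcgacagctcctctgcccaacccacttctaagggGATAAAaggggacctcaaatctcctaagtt
Krt10 (chr11:99389365-99389614): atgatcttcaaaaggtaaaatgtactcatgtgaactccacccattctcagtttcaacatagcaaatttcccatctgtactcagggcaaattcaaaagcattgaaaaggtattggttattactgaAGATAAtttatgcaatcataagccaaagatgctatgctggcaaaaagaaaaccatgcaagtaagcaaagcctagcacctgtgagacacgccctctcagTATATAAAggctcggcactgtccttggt
Krt2 (chr15:101818170-101818419): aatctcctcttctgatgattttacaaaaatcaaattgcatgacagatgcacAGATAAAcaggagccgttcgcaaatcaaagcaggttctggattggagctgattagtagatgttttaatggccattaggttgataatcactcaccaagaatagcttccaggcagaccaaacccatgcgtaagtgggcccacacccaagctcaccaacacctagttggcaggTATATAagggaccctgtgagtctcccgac
Krt77 (chr15:101869706-101869955): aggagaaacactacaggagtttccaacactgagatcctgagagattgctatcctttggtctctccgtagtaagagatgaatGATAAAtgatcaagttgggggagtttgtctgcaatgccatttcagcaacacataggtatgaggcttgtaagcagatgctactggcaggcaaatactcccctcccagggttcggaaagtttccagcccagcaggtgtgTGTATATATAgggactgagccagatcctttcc

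The promoters of *Krt10*, *Krt2* and *Krt77* held a TATANA match within 32 bases of the start, a motif present in 22.6% of 32851 promoters of this length. The *Krt5* promoter held GATAAA 30 bases before its start (8.79% of promoters) and a p63 half-site 95 bases before it (7.13% of promoters). The *Krt14* stretch held an AP1 match at 179 bases (6.75% of promoters) and an ACAAT match at 137 bases before the start (27.7% of promoters). AGATAA occurred in *Krt10* at 126 bases and in *Krt2* at 199 bases (9.99% of promoters), and GATAAA further out in *Krt2* at 198 bases and in *Krt77* at 169 bases. GC content was 58.4% for *Krt14* and 56.0% for *Krt5*, against 39.6% for *Krt10*, 45.2% for *Krt2* and 46.8% for *Krt77*. A match describes the letters and is not a bound site.

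*Krt14* had the highest H3K27ac fold of the 7 members in every list. Fold enrichment is the ratio of the read pileup at the summit to the local background, with the same constant added to both. The constant weighs more in a list with a low background, so that folds of different lists are not on the same scale. The highest fold of *Krt14* was 44.6, 14.6, 22.5, 22.7 and 15.6 from D0 to W12, at pileups of 66, 18, 63, 37 and 21. The D0 value was thus the highest of the 5. The 95% counting interval at D0, 34.7 to 56.6, did not overlap the later ones, of which the highest upper limit was 31.0 at W6. Folds were lower than at D0 at most other genes as well. The ratio to D0 was 0.328 for *Krt14* against a median of 0.62 over 11862 genes with a peak in both lists at W1, 0.503 against 0.76 at W2, 0.508 against 0.976 at W6 and 0.349 against 0.576 at W12. Of the genes with a peak in both lists, 4.59%, 13.7%, 4.76% and 13.6% had a lower ratio than *Krt14* from W1 to W12. These shares leave out genes that had a D0 peak and none in the later list. A D0 peak was present for 12886 genes, and 11862, 11845, 12184 and 11136 had a peak in both lists from W1 to W12.

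The width of the *Krt14* peak changed less than its height. At D0 a single peak of 8.17 kb ran from 2.81 kb upstream of the start to 5.35 kb downstream of it, past the end of the gene. The peak over the start was 7.6 kb wide at W1, 7.7 kb at W2, 7.14 kb at W6 and 6.86 kb at W12, and it covered the start in all 5 lists. H3K27ac covered 33.5% of the window at D0 and 32.6%, 34.3%, 31.8% and 28.1% from W1 to W12. These shares exceeded those of at least 99.3% of protein-coding genes in every list. The higher share at W2 than at D0 turned into a lower one with 2 kb flanks (difference of -4.57 percentage points) and with 50 kb flanks (-0.214 points).

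*Krt5*, the partner of *Krt14*, had a highest fold of 18.7, 10, 18.2, 13.1 and 9.21 from D0 to W12. All 5 counting intervals shared values between 13.7 and 15.6, so that the order of these levels was not resolved at this depth. The ratio to D0 at W2, 0.978, was above that of 74.2% of genes with a peak in both lists. The number of peaks in the window was 3, 7, 5, 7 and 8 from D0 to W12. The peaks called over the gene were narrower at the later times than at D0. At D0 it was a peak of 7.99 kb over the start, at W1 5.79 kb and at W2 6.41 kb. At W6 the widest peak was 4.01 kb, and at W12 the widest was 1.84 kb and no peak covered the start. The start then lay between a peak that ended 0.257 kb downstream and one that ended 0.415 kb upstream of it. Peaks were narrower in the whole W12 list too, which held 33985 over 23.1 Mb, against 30268 over 27.3 Mb at D0. The part of peak calling in the narrower peaks was not tested.

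**Figure D1:**
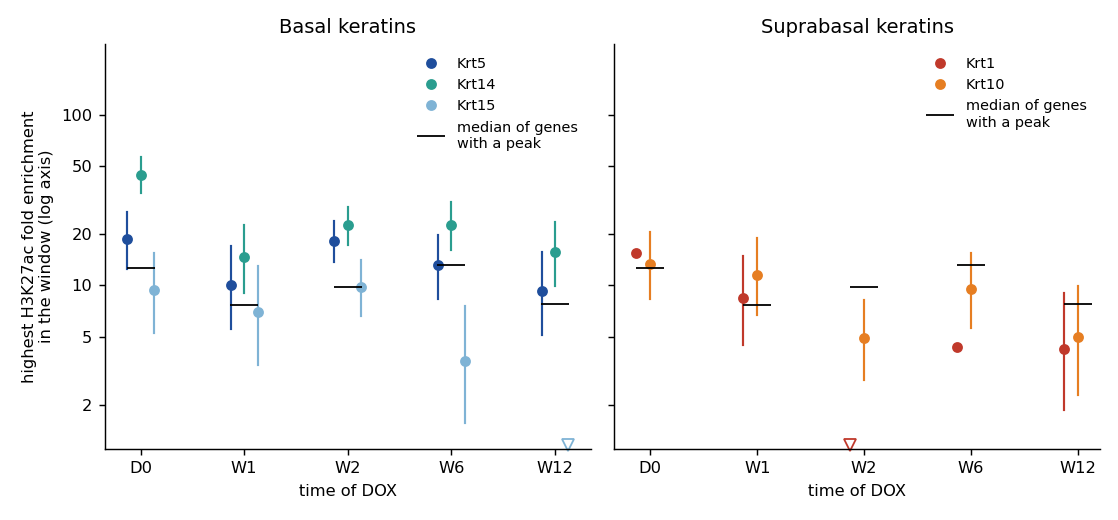
Highest H3K27ac fold enrichment in the window (log axis) by time of DOX for 3 basal and 2 suprabasal keratins. Points are the values of the pooled lists, vertical lines 95% Poisson intervals of the pileup (counting error only; absent where the local background was above that of the list), horizontal bars the median over genes with a peak, and open triangles mark lists without a peak in the window. *Krt14* stood highest in each list, at 44.6 at D0, and *Krt1* had no peak at W2 and *Krt15* none at W12.

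Acetylation near *Krt5* was found at a place that D0 lacked. A region 13.5 to 16.2 kb downstream of the *Krt5* start (chr15:101696702-101699360) had no peak at D0, and peaks with a fold of 4.62, 10.5, 7.16 and 4.96 from W1 to W12. It lies between *Krt5* and *Krt6a*, a keratin of the outer root sheath and of wounded epidermis, 2.4 to 5.05 kb upstream of the *Krt6a* start. *Krt6a* was named after its values had been seen. H3K4me1 overlapped the region in all 5 lists of skin, D0 included, and in all 4 culture lists. In culture the domain that ended 15.7 kb downstream had a fold of 3.64 in the absence of DOX and of 4.81, 4.71 and 4.47 for WT, ΔHMG and ΔTA. This domain was wider without DOX, 3.0 kb, than with WT, ΔHMG and ΔTA, at 1.51, 1.48 and 2.0 kb. The part of its width in these folds was not tested. A further region, 8.02 to 9.96 kb upstream of the *Krt5* start, had no peak at D0 and W1 and folds of 6.32, 5.37 and 4.25 in the 3 later lists.

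The summit of the W2 peak in the downstream region is shown because it had the highest fold of the *Krt5* intervals with no D0 counterpart (300 bases centred on the summit, plus strand, mm10 genome, no exon).
Krt5 downstream peak (chr15:101698007-101698306): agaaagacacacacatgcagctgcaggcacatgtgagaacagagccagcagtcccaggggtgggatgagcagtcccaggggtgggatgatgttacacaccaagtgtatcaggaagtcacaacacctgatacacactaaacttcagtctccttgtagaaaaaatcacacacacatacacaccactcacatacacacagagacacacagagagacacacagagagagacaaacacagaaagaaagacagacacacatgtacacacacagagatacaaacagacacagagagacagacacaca

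None of the 6 motifs occurred in it. Runs of at least 6 bases in which A alternates with C or with G, on either strand, made up 33.7% of this stretch, more than at 99.4% of W2 summits, where the median was 2.0%. The effect of such repeats on read placement was not tested.

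H3K27ac covered 37.6% of the *Krt5* window at D0 and 33.2%, 48.7%, 38.5% and 27.6% from W1 to W12, in each list more than at 99.6% or more of protein-coding genes. The higher shares at W2 and W6 depended on the flanks, since with 2 kb flanks the difference from D0 was -7.77 percentage points at W2 and -13.5 at W6. H3K4me1 covered 89.2% of the window at D0, 89.9% at W1 and 96.9% in each of the 3 later lists. Its domains left a gap at the 5′ part of the gene. It spanned 2.0 kb around the start at D0, 1.8 kb just inside the gene at W1, and 0.8 kb at W2 and at W6, and at W12 a domain of 22.0 kb ran across it. At *Krt14* H3K4me1 covered 72.8% of the window at D0 and 66.2%, 84.3%, 85.1% and 64.8% from W1 to W12, and a gap of 1.2 kb at W1 and of 1.6 kb at W12 lay over the 5′ part of the gene.

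**Figure D2:**
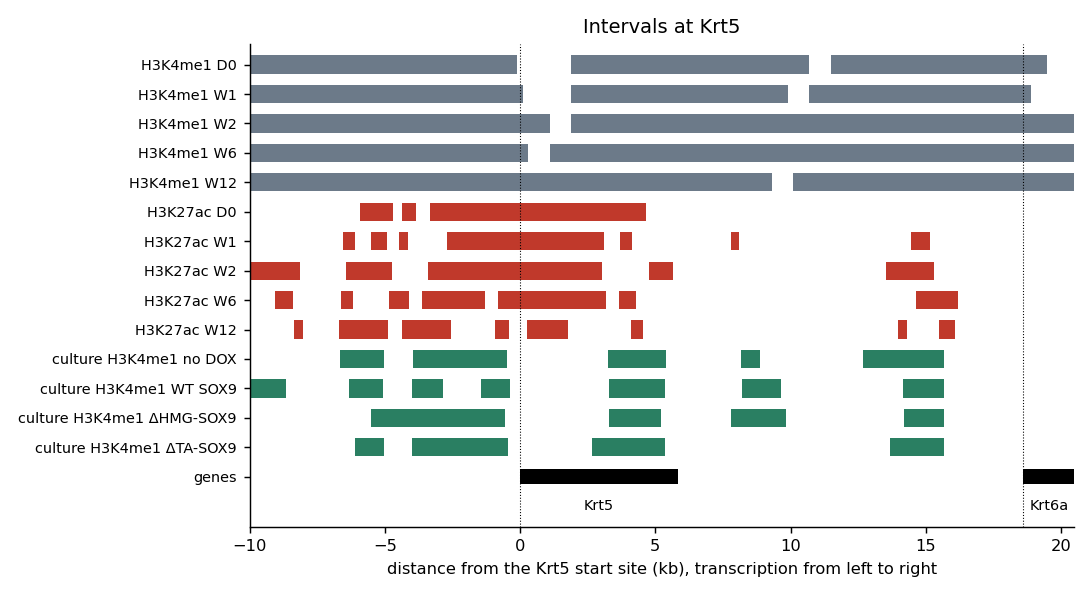
Intervals of the 14 lists in the *Krt5* window against distance from its start site (kb), with H3K4me1 of skin in grey, H3K27ac in red, H3K4me1 of culture in green and genes in black. The H3K27ac peaks 13.5 to 16.2 kb downstream, towards *Krt6a*, were absent at D0 and present in the 4 later lists.

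Among the 3 basal keratins, *Krt15* alone had no H3K27ac peak at W12. Its highest fold was 9.33 at D0, 6.93 at W1, 9.82 at W2 and 3.58 at W6. Of all D0 peaks, 53.7% had no counterpart at W12. The window held 4 peaks at D0, 3 at W1, 3 at W2 and 1 at W6, which covered 17.7%, 18.9%, 11.9% and 1.13% of it. Coverage thus stayed above that of at least 93.2% of protein-coding genes up to W2, and above that of 46.9% at W6. Peaks at D0, W1 and W2 covered the start, and the W6 peak of 274 bp did not. The counting intervals at D0, 5.28 to 15.5, and at W2, 6.59 to 14.1, both overlapped that at W6, 1.56 to 7.56. The lower fold at W6 was thus not resolved at this depth. Its ratio to D0 was 0.384, and 0.936% of genes with a peak in both lists had a lower one. Genes without a W6 peak are left out of this share. H3K4me1 remained over *Krt15*, with 90.1% of the window at D0 and 78.3%, 79.1%, 73.3% and 68.4% from W1 to W12, and a domain covered the start in all 5 lists.

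The suprabasal pair *Krt1* and *Krt10* carried H3K27ac in these sorted basal cells, but beside their start sites and not over them. *Krt1* had a peak of 2.84 kb at D0 that lay 3.67 to 6.52 kb upstream of its start, between *Krt77* and *Krt1*, with a fold of 15.5. The fold in this region was 8.47 at W1, and no peak was called at W2. At W6 it was 4.36 and at W12 4.25. The covered share of the window was 11.2%, 8.09%, 0%, 1.29% and 2.12% from D0 to W12. At W6 the ratio of its fold to D0 was 0.281, and 0.14% of genes with a peak in both lists had a lower one. At W12 the ratio was 0.274, with 4.65% of such genes lower. Genes with a D0 peak and no later one are left out of both shares. Of 12886 genes with a D0 peak, 12184 also had one at W6 and 11136 at W12. The smallest pileup of a called peak was 8 at W2 against 3 to 5 in the other lists, and the part of depth in the missing peak was not tested.

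The 300 bases around the D0 summit of this *Krt1* region are shown because no other interval of the members was so strong at D0 and absent at W2 (plus strand, mm10 genome, no exon).
Krt1 upstream peak (chr15:101856932-101857231): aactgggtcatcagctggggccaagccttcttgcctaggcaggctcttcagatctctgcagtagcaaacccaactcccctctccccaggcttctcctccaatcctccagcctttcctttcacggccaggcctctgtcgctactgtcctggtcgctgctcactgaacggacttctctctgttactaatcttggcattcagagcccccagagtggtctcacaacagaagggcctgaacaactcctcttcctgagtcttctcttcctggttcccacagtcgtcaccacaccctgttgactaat

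None of the 6 motifs occurred in this stretch. AP1 letters were present at 8.92% and ACAAT at 28.7% of the 30268 summits of the D0 list, taken at the same length.

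*Krt10* had H3K27ac on both sides of its start. The region upstream, 1.74 to 2.61 kb before the start, had a fold of 10.7 at D0, 11.5 at W1 and 4.17 at W6, and no peak at W2 and W12. The region 2.49 to 3.96 kb downstream, in the gene body, was called in all 5 lists, with a fold of 13.3, 6.93, 4.91, 9.54 and 4.96 from D0 to W12. A further peak, 1.93 to 2.48 kb downstream with a fold of 4.66, was called at D0 alone. The counting interval of the highest fold was 8.29 to 20.4 at D0 and 2.78 to 8.15 at W2, and these did not overlap. The share of the window covered was 9.02%, 7.39%, 2.95%, 5.17% and 2.78% from D0 to W12. The counting interval at W6, 5.6 to 15.4, overlapped those at D0 and at W2.

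*Krt77* carried its own acetylation at D0 alone among the 5 lists. A peak of 453 bp with a fold of 4.66 covered its start at D0, and peaks 6.19 to 7.19 kb and 7.54 to 8.04 kb upstream had folds of 6.0 and 4.66. None of these regions had a peak at W1, W2, W6 or W12, and all later H3K27ac in the window belonged to the region shared with *Krt1*. These D0 peaks were not strong ones, since the median fold of the D0 list was 6.0. Of all D0 peaks, 37.4%, 38.6%, 37.8% and 53.7% had no counterpart from W1 to W12. *Krt2*, a chain of the upper suprabasal layers, had no H3K27ac peak in its window in any list.

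**Figure D3:**
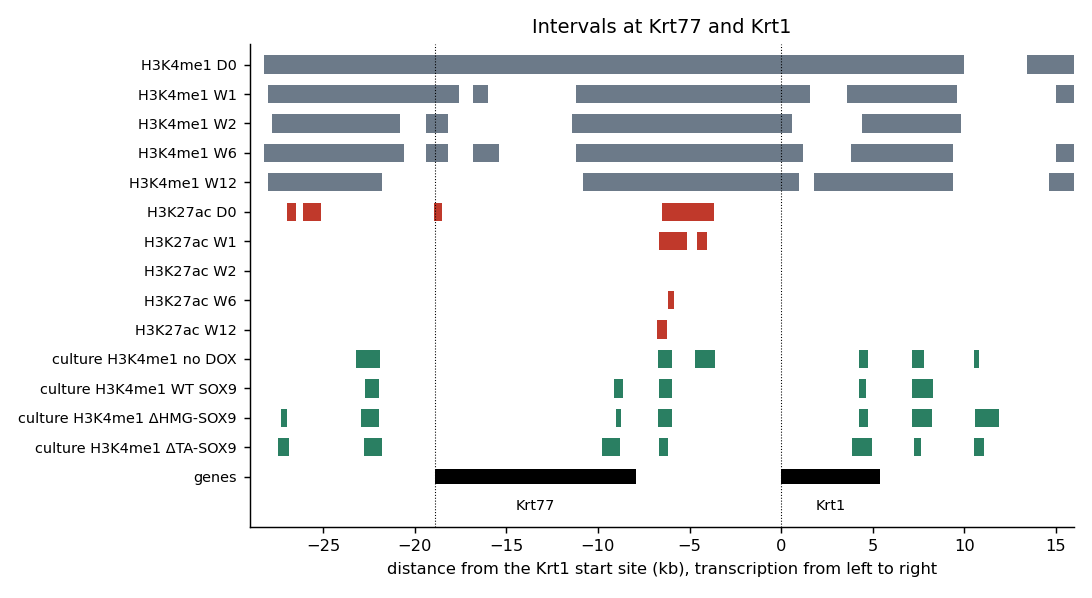
Intervals of the 14 lists at *Krt77* and *Krt1* against distance from the *Krt1* start site (kb), with H3K4me1 of skin in grey, H3K27ac in red, H3K4me1 of culture in green and genes in black. A single H3K4me1 domain of 38.2 kb spanned both genes at D0 and was in pieces at every later time, and no H3K27ac peak was called at W2.

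The H3K4me1 domain over *Krt77* and *Krt1* was in smaller pieces after D0. At D0 a single domain of 38.2 kb spanned *Krt77* and *Krt1*. The widest domain in the *Krt1* window was 12.8 kb, 12 kb, 12.4 kb and 11.8 kb from W1 to W12. In the *Krt77* window the longest gap, over the gene body, was 4.8 kb, 6.8 kb, 4.2 kb and 11.0 kb from W1 to W12, the last of which held the start of *Krt77*. Coverage of the *Krt77* window was 97.7%, 77.5%, 65.2%, 73.0% and 59.0% from D0 to W12, and that of the *Krt1* window 86.6%, 70.8%, 63.0%, 67.7% and 76.3%. The domain over the acetylated region upstream of *Krt1* was called in all 5 lists, W2 included.

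*Krt2* had the largest difference in H3K4me1 coverage between D0 and W2 of the 7 members. Its window was covered by 81.1%, 56.0%, 24.7%, 35.3% and 40.4% from D0 to W12. The upstream domain of 11.2 kb at D0 was replaced by pieces of at most 3.6 kb at W1, and at W2 the sole domain left at or upstream of the start was one of 1.4 kb over the start. *Krt10* had 64.6%, 39.7%, 34.5%, 53.5% and 42.8% from D0 to W12. For *Krt1*, *Krt10* and *Krt2* the lowest H3K4me1 coverage was at W2, the time at which H3K27ac of *Krt1* was missing. The H3K4me1 lists cannot show a lower level within a domain, since they give no fold.

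**Figure D4:**
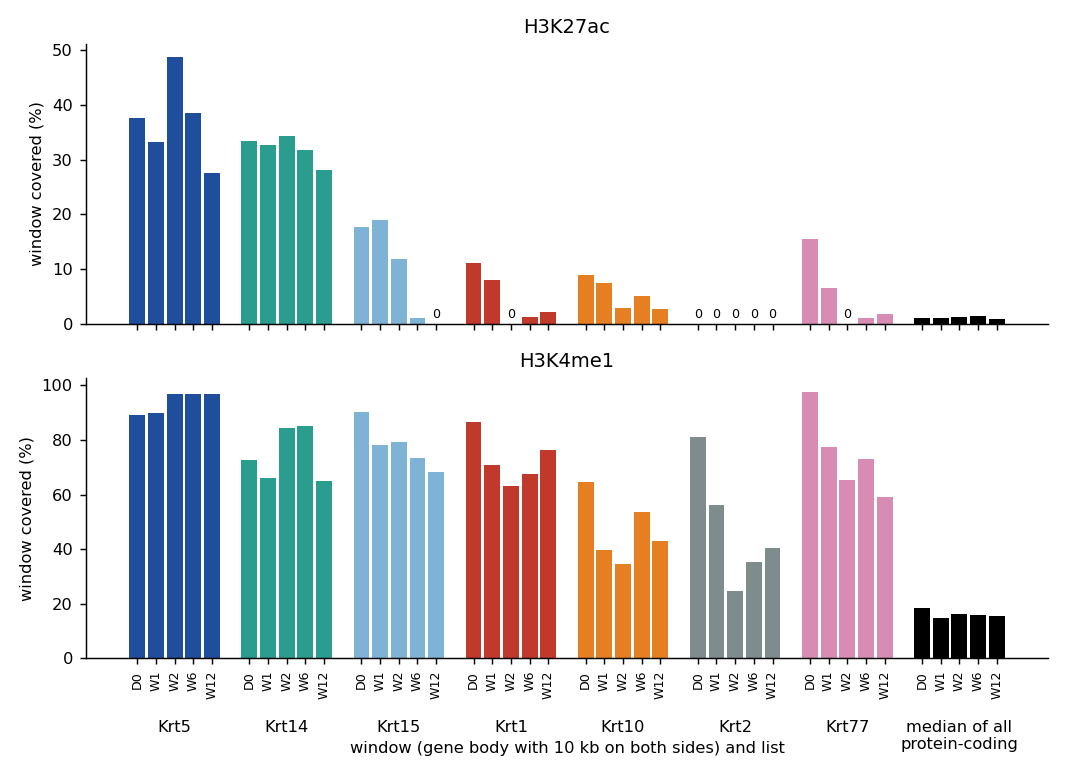
Share of each window (gene body with 10 kb on both sides) covered by H3K27ac peaks (top) and H3K4me1 domains (bottom) in the 5 lists of skin, with the median over all protein-coding genes in black. H3K27ac of *Krt5* and *Krt14* stayed at 27.6% or more in each list, while that of *Krt15*, *Krt1*, *Krt10* and *Krt77* was 2.78% or less at W12 and *Krt2* had none.

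Counted over members, H3K27ac coverage was lower than at D0 in 5 of the 6 with a peak at W1, beside 51.8% of all protein-coding genes with a peak in either list. At W2 it was lower in 4 of 6, beside 45.3%. At W6 it was lower in 5 of 6, beside 35.9%. At W12 it was lower in 6 of 6, beside 65.1%. Coverage lower by at least 1.5 times was found for *Krt77* alone at W1 (1 of 6, beside 23.5% of genes), for *Krt1*, *Krt10* and *Krt77* at W2 (3 of 6, beside 20.2%), and for these 3 with *Krt15* at W6 (4 of 6, beside 15.2%) and at W12 (4 of 6, beside 43.6%). *Krt1* and *Krt77* are not separate counts after D0, because they share their peak.

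The highest fold was below that of D0 in 6 of 6 members with a peak in both lists at W1, where 87.0% of genes were lower. For W2 this held in 3 of 4, beside 75.7% of genes. For W6 it held in 6 of 6, beside 52.5%, and for W12 in 5 of 5, beside 86.1%. *Krt1* and *Krt77* are not separate counts here, because their highest fold is that of the shared region in each list with a peak, D0 included. At W1, W2 and W12 most genes thus moved the same way as the members. H3K4me1 coverage was lower than at D0 in 6 of 7 members at W1, where 73.3% of genes were lower. For W2 it was 5 of 7, beside 62.1% of genes, for W6 5 of 7, beside 65.5%, and for W12 6 of 7, beside 67.3%. These shares of members are near those of all genes. Coverage lower by at least 1.5 times was found for *Krt10* at W1 (1 of 7, beside 23.2% of genes), *Krt10* and *Krt2* at W2 (2 of 7, beside 23.3%), *Krt2* at W6 (1 of 7, beside 23.5%) and *Krt10*, *Krt2* and *Krt77* at W12 (3 of 7, beside 25.3%). The members with higher coverage were *Krt5* in all 4 lists and *Krt14* at W2 and W6.

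Of 15 D0 peaks in the 7 windows, counted once where shared, 5 had no counterpart at W1 (33.3%, exact 95% Clopper-Pearson interval 11.8 to 61.6%). The number was 9 for W2 (60.0%, 32.3 to 83.7%), 7 for W6 (46.7%, 21.3 to 73.4%) and 9 again for W12 (60.0%, 32.3 to 83.7%). Over the whole D0 list 37.4%, 38.6%, 37.8% and 53.7% had none, all within these intervals. Peaks without an overlapping D0 peak numbered 5 of 16 for W1 (31.2%, 11.0 to 58.7%), 4 of 11 for W2 (36.4%, 10.9 to 69.2%), 5 of 14 for W6 (35.7%, 12.8 to 64.9%) and 3 of 11 for W12 (27.3%, 6.02 to 61.0%), beside 41.3%, 40.1%, 39.8% and 56.2% of the whole lists. Each of these intervals held the value of its list. The peaks fell into 18 separate regions when the 5 lists were merged. Of these, 3 were called in every list, namely the merged regions that span the starts of *Krt5* and *Krt14* and the one in the gene body of *Krt10*, and 5 were called at D0 alone. At W12 the peaks of the *Krt5* region did not cover the start itself. The peaks of the members lay in an H3K4me1 domain of the same time in 15 of 15, 16 of 16, 10 of 11, 14 of 14 and 11 of 11 cases from D0 to W12, beside 95.9%, 94.1%, 96.3%, 97.4% and 73.9% of the whole lists.

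In each culture list the 3 basal keratins had more of their windows covered by H3K4me1 than the suprabasal ones. Without DOX the domains covered 42.3% of the *Krt5* window, 34.3% of that of *Krt14* and 27.9% of that of *Krt15*, beside a median of 7.62% over all protein-coding genes. They covered 13.0% of the *Krt1* window, 12.5% of *Krt10*, 10.3% of *Krt77* and 1.54% of *Krt2*. *Krt2* thus had less than the median gene in culture, while in skin at D0 it had more (81.1% against 18.5%). The culture lists and the skin lists differ in format and in the width of their intervals, and their coverage was not compared in size.

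With WT SOX9 the *Krt5* window was covered by 38.0%, *Krt14* by 33.0%, *Krt15* by 20.2%, *Krt1* by 10.8%, *Krt10* by 8.2%, *Krt77* by 6.39% and *Krt2* by 1.56%. Coverage was lower than without DOX in 6 of 7 members, beside 43.0% of the genes with a domain in either list. It was lower by at least 1.5 times in 2 of them, *Krt10* and *Krt77*, beside 12.6% of genes. With ΔHMG-SOX9 it was lower in 5 of 7, beside 47.6%, and *Krt15*, at 18.2%, was the 1 member lower by at least 1.5 times, beside 9.53% of genes. *Krt1* was higher there, at 15.5%. With ΔTA-SOX9 it was lower in 6 of 7, beside 42.1%, and by at least 1.5 times in 2, *Krt10* at 7.03% and *Krt2* at 0.72%, beside 9.51%. The difference between variants could not be tested, because each has a single pooled list.

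At single intervals, the domain upstream of *Krt1* had a piece 3.63 to 4.73 kb before the start without DOX that the 3 lists with DOX lacked, while the piece 5.93 to 6.71 kb before the start had a counterpart in each of them. The opposite was seen further upstream, where the 3 lists with DOX had a domain that was absent without DOX. It lay 8.65 to 9.14 kb before the start with WT, 8.76 to 9.03 kb with ΔHMG and 8.79 to 9.79 kb with ΔTA. The culture domain at 1.38 to 2.44 kb upstream of *Krt10*, which overlaps the acetylated region of skin, was called in all 4 lists, with a fold of 3.57 without DOX, 3.44 with WT, 3.42 with ΔHMG and 3.42 with ΔTA. No culture domain covered the start of *Krt5* or *Krt14*. In skin at D0 an H3K4me1 domain covered the start of *Krt14* but not that of *Krt5*, while H3K27ac covered both.

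**Figure D5:**
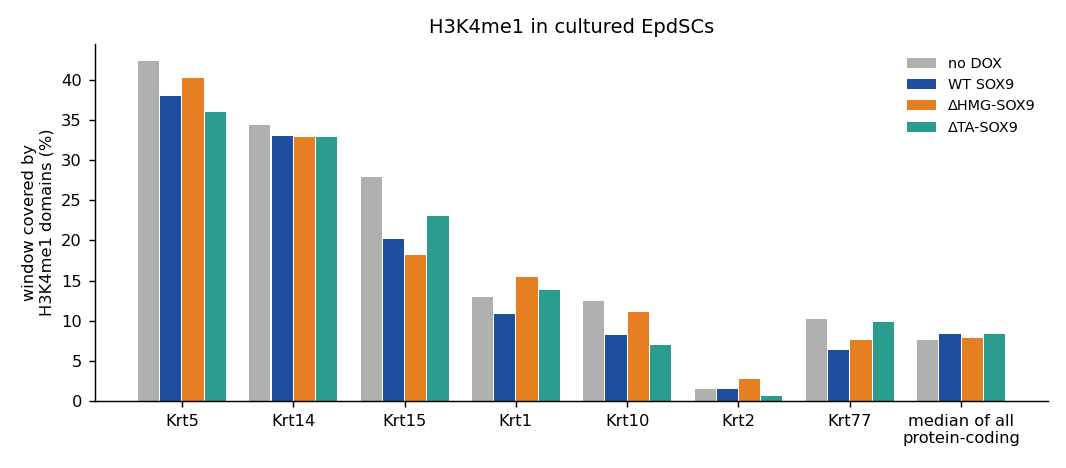
Share of each window covered by H3K4me1 domains in cultured EpdSCs without DOX and with WT, ΔHMG- or ΔTA-SOX9, with the median over all protein-coding genes at the right. Each bar is 1 pooled list, so that no error can be given. *Krt5* stood between 36.0% and 42.3%, and *Krt2* at 2.82% or less.

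The genes whose coverage over the 14 lists was nearest to that of a member, by the mean absolute difference in covered share and over 1 Mb away, were *Spaca6*, *D730001G18Rik* and *Perp* for *Krt14* (3.9, 4.86 and 5.15 percentage points) and *Dnajb1*, *Cd9* and *Hyal2* for *Krt5* (3.98, 4.63 and 5.17 points). For *Krt10* they were *Slc25a22*, *Guk1* and *Rab27a* (2.65, 3.14 and 3.32 points), and for *Krt1* the nearest were *Rmi2* and *Lsm3* (3.36 and 3.62 points). H3K27ac covered 2.65% of the *Rmi2* window and 12.2% of the *Lsm3* window at D0, against 11.2% for *Krt1*. At W2 it covered 2.62% and 6.23%, against 0% for *Krt1*. The nearest genes were picked on these same lists, so that such values describe them and are no separate comparison. *Perp*, a desmosome protein of stratified epithelia, had 46.6% of its window covered by H3K27ac at D0 and 26.6% at W12, against 33.5% and 28.1% for *Krt14*.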

How the data were processed

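H3K27ac and H3K4me1 were profiled by MINT-ChIP, a multiplexed chromatin immunoprecipitation of barcoded samples, with high and low nuclease digests. Per the labels and the methods of the study, reads were demultiplexed by barcode, trimmed with Skewer and aligned to mm10 with Bowtie2 (2.2.9), duplicates were removed with Picard, and replicates were merged with SAMtools (1.9). H3K27ac peaks were called with MACS2 (2.1.1) and broad H3K4me1 domains of skin with epic2, and the labels also list SICER (0.0.36) and deepTools (2.5.4), with no role. How the culture lists were called, and the control and thresholds of each list, are not given in the sources used here. The H3K27ac list of W12 alone carries a threshold tag in its name. The lowest MACS2 score was 13 in each of the 5 H3K27ac lists, and whether other settings differed at W12 is not known.

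The authors' H3K27ac and culture lists were deposited with a score, a fold enrichment and −log10 p-value and q-value columns. The H3K27ac lists also hold a summit offset. The fold is a ratio of pileup to local background, in the H3K27ac lists with a constant added to both. The authors' H3K4me1 lists of skin were deposited with a p-value for each domain and no fold. The barcode files of the libraries and total H3 were not analysed here.

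Gene bodies were taken from GENCODE M21 on mm10, and every protein-coding gene of 21 chromosomes was given the same window of 10 kb on both sides. Intervals were counted at an overlap of 1 bp, and overlapping bases were counted once (Python 3.11.15, numpy 2.4.6, scipy 1.17.1). Fold and score came from the lists, and the highest fold in a window was used. An H3K27ac fold was read as the pileup plus 1 over the background plus 1. The pileup at H3K27ac summits was recovered from fold and the background of each list in this form. In this way 83.3% to 96.0% of peaks fell on a whole number within 0.01, and the pileup was given exact 95% Poisson intervals. Shares of peaks were given exact 95% Clopper-Pearson intervals. Both cover counting error only. Counting and overlap functions were tested on simulated data with known answers. Samples were grouped by the labels, and the condition of a culture list was read from its name. No test between lists was made, because each is pooled. The members, the gene lists and the motifs were chosen with earlier results of these data known. The text names the 7 members, genes that start in their windows, the marker genes and the 3 protein-coding genes most like *Krt14*, *Krt5*, *Krt10* and *Krt1* at over 1 Mb (for *Krt1*, 1 of these is not reported here), and *Krt6a* and the keratins of the closing section beyond these were chosen after their values were seen. Alternatives were other flanks, stricter lists, joined intervals, lists of equal length, other overlaps and folds of change.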

Additional observations from a re-analysis of the deposited data

How the results depend on the processing

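No paired analysis was possible because each list pools the replicates and digests of its group, and for the same reason no replicate could be left out. Of 133 counts recomputed under the alternatives 96 stayed within 1.5 times of the value reported and 37 did not, and of 358 values for single genes and shares 277 stayed within 1.5 times, 69 moved further and 12 changed sign. Why was not tested, except that wider flanks hold more peaks and stricter lists fewer.

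With 2 kb flanks the H3K27ac peaks gained were 3, 2, 0 and 0 from W1 to W12, and those lost at W1 were 3. With 50 kb flanks 13, 12, 10 and 12 were gained and 14, 17, 17 and 19 lost at W1, W2, W6 and W12. With peaks above the median score 0, 1, 2 and 0 were gained, and 2 were lost at W1, 5 at W2 and 5 at W12. With peaks under 1000 bp apart joined, 2 were gained at W1, and 2, 5, 3 and 5 were lost. With lists of equal length 3 were gained at W1. A coverage lower by at least 1.5 times, in place of any lower one, left 1 member for H3K27ac at W1, 1, 2, 1 and 3 members for H3K4me1 at W1, W2, W6 and W12, and 2, 1 and 2 for WT, ΔHMG and ΔTA in culture. With 2 kb flanks H3K4me1 was lower in 3 members at W6 and culture ΔTA in 2, and with 50 kb flanks culture ΔHMG in 2.

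The difference in H3K27ac coverage from D0, in percentage points, changed sign for *Krt5* with 2 kb flanks at W2 (-7.77) and W6 (-13.5), with peaks above the median score at W2 (-4.09) and W6 (-6.66), and with 50 kb flanks at W1 (0.868) and W12 (0.859). It did so for *Krt14* at W2 with 2 kb flanks (-4.57), 50 kb flanks (-0.214) and peaks above the median score (-1.94), and at W1 with joined peaks (2.71). It also did so at W1 for *Krt10* with peaks above the median score (0.664) and for *Krt15* with joined peaks (-1.5). The sign of coverage change at *Krt5* and *Krt14* thus depends on the window and the list. Depth limits the weak peaks: the smallest pileup of a called peak was 3 reads at W1 and 8 at W2.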

Other observations

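Among the 46 other keratin genes, those of simple epithelia and of stressed or wounded epidermis (9 genes) had an H3K27ac peak in 5 windows at D0 and W1 and in 6 at W2, W6 and W12. Of all protein-coding genes, 58.7%, 58.5%, 58.0%, 60.5% and 59.1% had one from D0 to W12. Windows of neighbouring keratins overlap and share peaks, so that genes with a peak are not separate counts. *Krt6b*, a close copy of *Krt6a* at which reads may be placed with less certainty, had no peak at D0 and W1 and a highest fold of 3.23 at W2, 5.9 at W6 and 3.54 at W12. H3K4me1 covered 0% of its window at D0 and W1, and 17.7%, 26.6% and 36.6% in the 3 later lists, and 41.4%, 39.0%, 71.8%, 76.7% and 85.2% of that of *Krt6a* in the 5 lists. *Krt16* and *Krt17*, which lie side by side on chromosome 11 and are induced in wounds, have windows that overlap. The highest fold was 10, 10, 14.7, 16.7 and 10.6 from D0 to W12 for *Krt16*, and 12, 10, 14.7, 16.7 and 10.6 for *Krt17*, while the number of peaks was 6, 4, 3, 2 and 3 for *Krt16* and 8, 4, 3, 2 and 5 for *Krt17*.

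Of 20 keratins of the hair shaft and inner root sheath, 12 had an H3K27ac peak at D0 and 9, 10, 3 and 6 from W1 to W12, beside the same shares of all protein-coding genes and with the same overlap of windows. The hair keratins *Krt33a* and *Krt33b* were not among these 20. Their windows overlap, and each held 3, 3, 1, 1 and 3 peaks from D0 to W12. *Krt75*, a keratin of the companion layer of the hair follicle, had a highest fold of 5.77, 3.84, 6.32, 11.3 and 7.63 from D0 to W12. These values have no spread between replicates and were not tested.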
